A study of Macaca fascicularis and Mus musculus with 42 samples.

Results

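TCL1B, DKK4, KYNU, BCL2L14 and SH2D4B are 5 of the 26018 entries of a gene table made from cells of the cynomolgus monkey (Macaca fascicularis). They were chosen because their levels were among those that climbed most steeply (ranks 1, 3, 4, 5 and 6 among genes with a name) over the days in which embryonic stem cells (ESC) were turned into primordial germ cell-like cells (PGCLC). These cells are the cultured counterpart of the founders of the germ line. The slope over days that chose them is given below as a description, with no test.

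The series holds 42 bulk libraries of 3′ RNA-seq, which counts reads at transcript ends. Of its 38 monkey libraries 29 were used, together with the 4 of mouse. The induced monkey cells came from a reporter line, 656BTAG42, which carries the transgenes Blimp1-tdTomato (Blimp1 is PRDM1) and TFAP2C-EGFP, named for transcription factors that germ cells switch on early. ESC were aggregated with BMP4 at 200 ng/ml, SCF at 100 ng/ml, EGF at 50 ng/ml, LIF at 1000 U/ml and the ROCK inhibitor Y27632 at 10 µM. The medium was either aRB27, which is RPMI with the B27 supplement, or GK15, which is GMEM with serum replacement, and every induced group received the same agents. Cells were sorted as BTAG positive, which is read here as both reporters on, as BT single positive (tdTomato alone) or as AG mid positive (intermediate EGFP).

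BTAG libraries numbered 2, 2 and 3 on days 2, 4 and 6 in aRB27, and 1, 1, 2, 2 and 2 on days 2, 4, 6, 8 and 10 in GK15. BT single libraries numbered 1 on day 2 and 2 on day 4, all in aRB27, and AG mid libraries 1 on day 2 in aRB27 and 1 on day 4 in GK15. The ESC of the reporter lines had 4 libraries, 1 of them from a second line, 656BTAG63, and lines without transgenes had 5. ESC medium contained bFGF and, for part of the cultures, the WNT inhibitor IWR1. Mouse PGCLC, of line R8 with the reporters Blimp1-membraneVenus and Dppa3-ECFP, gave 2 libraries on day 6 and 2 on day 4, both in GK15 with the same agents. Each induced monkey group thus rests on a single line.

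Another 9 libraries of the reporter lines were left out because their labels are in doubt. Some of them hold reporter-gene levels that go against their gate: PRDM1 ranged from 0 to 253 RPM among them. Where a call of a gene named below was lost with these libraries put back as labelled, the value as labelled is given as well. In the 29 libraries used, PRDM1 was 118 to 181 RPM in BTAG cells of days 6 to 10 and at most 2.59 RPM in ESC, and TFAP2C was 2.53 and 3.48 RPM in BT single cells of day 4. In the AG mid libraries of aRB27 day 2 and GK15 day 4, PRDM1 was 11.1 and 0.9 RPM and TFAP2C 146 and 24.4 RPM, against 337 to 717 RPM of TFAP2C in BTAG cells. Depth was 1.08 to 6.80 M reads (median 2.27), and 1 read stood for 0.147 to 0.929 RPM (reads of the gene per 1000000 reads of the library). The labels do not say whether libraries of a group were separate cultures, so every p-value measures only the spread between these samples. In bulk RNA, fewer expressing cells and less RNA per cell cannot be told apart.

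The genes belong to unrelated protein families. TCL1B is a relative of the TCL1 oncogene product, a small protein that binds the kinase AKT and raises its activity. DKK4 is a secreted Dickkopf protein, which blocks canonical WNT signalling by binding the coreceptors LRP5 and LRP6. KYNU is kynureninase, an enzyme of the pathway that turns tryptophan into NAD, in which TDO2 or the IDO enzymes make the first step. BCL2L14 is a member of the BCL2 family, whose proteins promote or restrain cell death at the mitochondrion. SH2D4B is an adaptor-like protein with an SH2 domain, a fold that binds phosphotyrosine.

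TCL1B had the steepest slope on the log2(RPM + 1) scale. Its levels in aRB27 BTAG cells were 1.75 and 0.49 RPM on day 2, 14.97 and 16.81 RPM on day 4, and 28.35, 25.21 and 12.57 RPM on day 6. In GK15 BTAG cells they were 0.46 RPM on day 2, 3.67 RPM on day 4, 11.24 and 6.63 RPM on day 6, 18.57 and 86.46 RPM on day 8, and 69.9 and 306.94 RPM on day 10. The day 8 and day 10 libraries in GK15 lay above both day 6 libraries of that medium, and the day 10 libraries overlapped with those of day 8. No read of TCL1B was found in any of the 9 ESC libraries, the 3 BT single libraries or the 2 AG mid libraries. Its mean of days 8 and 10 in GK15, 120.5 RPM, was at least 532-fold higher than in reporter ESC, taking 3 reads in that whole group as the floor, which covers counting error only. Library 2 of day 10 carries much of that mean: without it the mean was 58.3 RPM and the bound at least 257-fold. Reads were present in all 15 BTAG libraries.

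DKK4 followed another course. In aRB27 BTAG cells it was 2.34 and 6.34 RPM on day 2, 32.24 and 26.78 RPM on day 4, and 200.58, 187.02 and 305.61 RPM on day 6. In GK15 BTAG cells it was 17.67 RPM on day 2, 29.17 RPM on day 4, 153.24 and 323.1 RPM on day 6, 394.64 and 88.21 RPM on day 8, and 338.42 and 166.67 RPM on day 10. The step from day 4 to day 6 was the largest: the means of day 6 were 7.83-fold and 8.16-fold those of day 4 in aRB27 and GK15, with no overlap in either medium. In aRB27 the step from day 2 to day 4 was close to it, at 6.80-fold and also without overlap. In GK15 that earlier step was 1.65-fold, between single libraries. The means of days 8 and 10 in GK15, 241 and 253 RPM, were close to that of day 6, 238 RPM, and all their libraries overlapped.

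DKK4 was not silent in every ESC library. It measured 28.91 RPM in library 2 and 20.15 RPM in library 1 of the reporter ESC, against 0 and 0.54 RPM in libraries 3 and 4, and at most 2.17 RPM in the lines without transgenes. The endoderm markers in the same ESC libraries summed to 232.6 and 180.6 RPM in libraries 2 and 1, and to 5.28 and 44.7 RPM in libraries 3 and 4. The marker CER1 alone averaged 83.4 ± 92.2 RPM in reporter ESC (SD, n = 4). Of the 16 markers, 7, 3, 11 and 6 were at 0 in libraries 2, 1, 3 and 4. Libraries 1 and 2 carry the title code MS134 and the others MS162, a code that the labels do not explain. The part of these markers and of the code in the DKK4 level was not tested. The mean of days 8 and 10 in GK15 was 247 RPM, 19.9 times the reporter ESC mean of 12.4 RPM, and 35.8 times it without reporter ESC library 2. The lines without transgenes averaged 0.73 RPM.

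KYNU was 1.17 and 0.49 RPM on day 2, 4.61 and 3.11 RPM on day 4, and 36.82, 17.0 and 18.52 RPM on day 6 in aRB27 BTAG cells. In GK15 BTAG cells it was 1.39 RPM on day 2, 30.17 RPM on day 4, 156.57 and 61.49 RPM on day 6, 161.57 and 70 RPM on day 8, and 163.33 and 99.55 RPM on day 10. Like DKK4 it levelled off: the mean of day 8 was 1.06 times that of day 6, and the mean of day 10 was 1.14 times that of day 8, with overlapping libraries. KYNU lay between 0 and 4.15 RPM in the 9 ESC libraries. Its mean of days 8 and 10 in GK15 was 124 RPM, 114 times the reporter ESC mean of 1.08 RPM, which rests on 14 reads. Library 2, the library of line 656BTAG63, held 8 of these reads, and without it the ESC mean was 0.293 RPM and the ratio 421.

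BCL2L14 was lowest on days 2 and 4. It was 0 RPM in both day 2 libraries, 0.58 and 6.23 RPM on day 4, and 15.23, 18.17 and 9.26 RPM on day 6 in aRB27 BTAG cells. In GK15 BTAG cells it was 1.39 RPM on day 2, 0.67 RPM on day 4, 6.25 and 3.01 RPM on day 6, 14.86 and 26.77 RPM on day 8, and 20.76 and 56.56 RPM on day 10. The libraries of day 8 lay above those of day 6 in GK15, and those of day 10 overlapped with day 8. It was the only member with reads in all 5 libraries of ESC without transgenes, at 10.92 and 5.77 RPM in line CMK6 and 2.46 to 4.61 RPM in the other lines, which overlaps with BTAG cells of days 4 and 6. Reporter ESC held 1.91, 0, 2.2 and 0 RPM.

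SH2D4B was 0 and 1.46 RPM on day 2, 4.03 and 3.11 RPM on day 4, and 60.51, 49.25 and 25.14 RPM on day 6 in aRB27 BTAG cells. In GK15 BTAG cells it was 3.25 RPM on day 2, 8.83 RPM on day 4, 67.46 and 63.29 RPM on day 6, 91.93 and 92.16 RPM on day 8, and 92.74 and 45.25 RPM on day 10. The main step again fell between days 4 and 6, where the means were 12.6-fold and 7.4-fold apart in aRB27 and GK15 without overlap. Day 10 spanned the levels of days 6 and 8. In ESC, SH2D4B had 1 read in the 4 reporter libraries together, and 7 of the 9 ESC libraries were at 0.

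**Figure D1:**
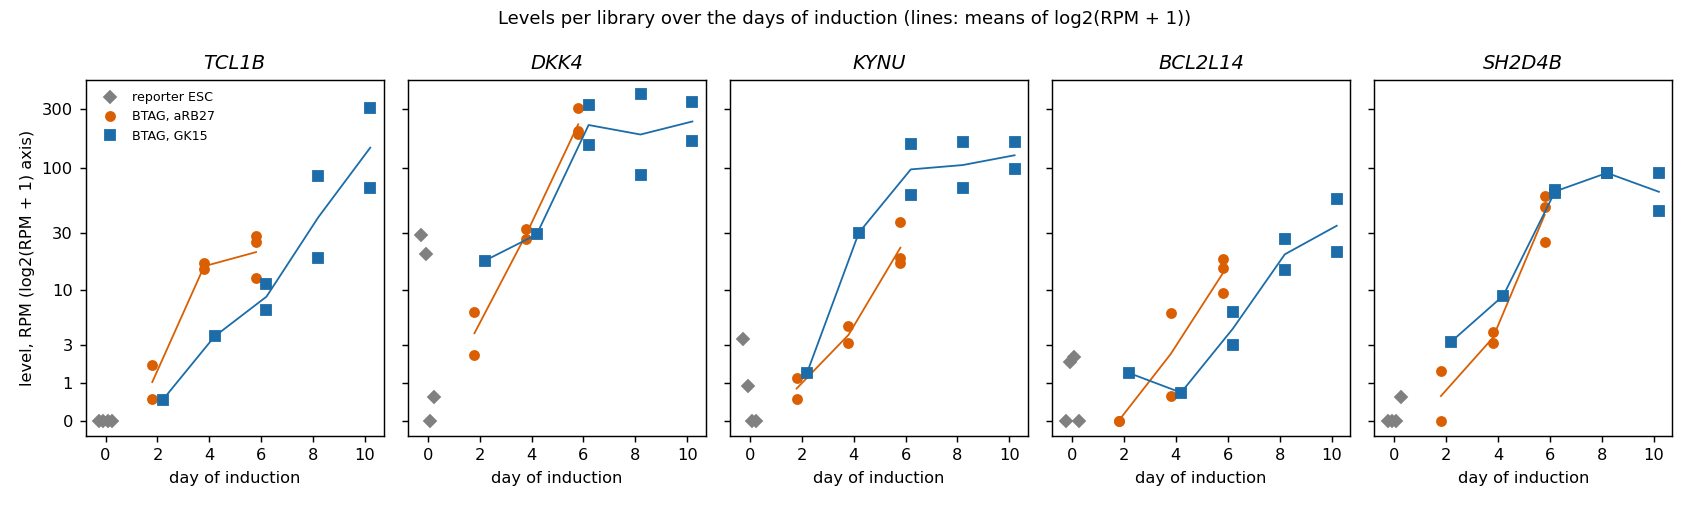
Level of each gene in RPM (vertical, log2(RPM + 1) axis) against the day of induction (horizontal; ESC at 0), with 1 point per library. Circles are BTAG cells in aRB27, squares BTAG cells in GK15 and diamonds reporter ESC, and the lines join the means of log2(RPM + 1). TCL1B and BCL2L14 were still climbing between days 6 and 10, while DKK4 and KYNU were flat over these days.

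The slope that chose the genes was fitted over the 15 BTAG libraries with the medium as a covariate. It was 0.83 ± 0.09 for TCL1B, 0.69 ± 0.13 for DKK4, 0.69 ± 0.09 for BCL2L14, 0.68 ± 0.11 for SH2D4B and 0.68 ± 0.10 for KYNU, in log2(RPM + 1) per day ± SE. Among genes with a name these were ranks 1, 3, 4, 5 and 6, and among all entries ranks 1, 7, 8, 9 and 11. Rank 2 was TFCP2L1, a transcription factor of pluripotent and germ cells, at 0.77 ± 0.14. Just below KYNU came CACNA2D4 at 0.68 ± 0.05, ABCG1 at 0.66 ± 0.09 and PPP1R14C at 0.66 ± 0.12, so there is no gap at the edge of the group. Of the 9826 genes tested, 7.14% rose by this measure (limma, Benjamini-Hochberg adjusted p under 0.05 and a slope of at least 0.125). All 5 members passed the filter on low values, which they did through the late libraries in which they are high, and nothing is read from their slopes against that share. Rising genes made up 36.9% of those that changed, or 51.1% with median-of-ratios scaling.

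The ranks depended on how low values were treated. With a pseudocount of 10 RPM, DKK4 was rank 1, TCL1B rank 8, SH2D4B rank 13, KYNU rank 14 and BCL2L14 rank 52. With a pseudocount of 0.1 RPM, TCL1B was rank 4, BCL2L14 rank 5, SH2D4B rank 16, KYNU rank 21 and DKK4 rank 34. Within each medium over the shared days 2 to 6 the slopes were 0.82 and 0.67 for TCL1B, 1.38 and 0.95 for DKK4, 0.94 and 1.3 for KYNU, 0.98 and 0.34 for BCL2L14, and 1.22 and 1.03 for SH2D4B, in aRB27 and in GK15. With the title code as a covariate over all BTAG libraries, the slopes were 0.83 for TCL1B, 0.68 for DKK4 and BCL2L14, and 0.66 for SH2D4B and KYNU.

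The media were compared over days 2, 4 and 6 to see whether the genes depend on the culture. TCL1B was higher in aRB27 on days 4 and 6, with no overlap: on day 4 it was 14.97 and 16.81 RPM in aRB27, against 3.67 RPM in GK15, and the aRB27 libraries of day 6 reached down to 12.57 RPM, while those of GK15 reached up to 11.24 RPM. On day 2 the lower aRB27 library and the GK15 library held 1 read each, which gives no order. KYNU and SH2D4B went the other way, and their aRB27 libraries lay below those of GK15 on days 4 and 6. On day 2 KYNU held 3 reads in aRB27 and 3 in GK15, and SH2D4B 3 and 7, which gives no firm order. On day 6 the highest aRB27 level was 36.82 RPM for KYNU and 60.51 RPM for SH2D4B, against lowest GK15 levels of 61.49 and 63.29 RPM. DKK4 and BCL2L14 showed no constant order.

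None of the 5 passed the test between media (limma over 24 reporter-line libraries, adjusted over 10701 genes). This is read against 0.0841% of all genes tested, or 9 genes. The difference, aRB27 minus GK15, was 1.17 ± 0.45 for TCL1B, -1.73 ± 0.60 for KYNU and -1.06 ± 0.33 for SH2D4B on the log2(RPM + 1) scale (SE; limma adjusted p 0.520, 0.417 and 0.365). Their 95% intervals, without adjustment, ran from 0.23 to 2.10 for TCL1B, from -2.97 to -0.48 for KYNU and from -1.76 to -0.35 for SH2D4B. DKK4 differed by -0.63 ± 0.82 and BCL2L14 by 0.40 ± 0.59 (limma adjusted p 0.983 and 0.989). For DKK4 the sign turned to 1.15 with all libraries as labelled, and for BCL2L14 to -0.30 with edgeR. Days 2 and 4 in GK15 had a single library each, whose spread was taken from the other groups.

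The slope itself was also compared between the media over days 2 to 6. No gene of 9553, or 0%, passed with limma, which gave 457 genes at an unadjusted p under 0.05, and none of the 5 members did. With edgeR no gene passed and with DESeq2 1 gene did. The differences, aRB27 minus GK15, were 0.44 ± 0.18 per day for DKK4, 0.63 ± 0.31 for BCL2L14, -0.35 ± 0.21 for KYNU, 0.20 ± 0.22 for SH2D4B and 0.15 ± 0.26 for TCL1B (limma adjusted p 0.969 to 0.977). Without the lone GK15 library of day 2, the values became -0.06 for DKK4, 0.11 for KYNU and -0.16 for SH2D4B.

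The genes were then compared between sorting gates. In BT single cells of day 4 in aRB27, TCL1B had no read in either library, against 14.97 and 16.81 RPM in BTAG cells of that day and medium. The difference was -4.08 ± 0.68 log2(RPM + 1) (limma adjusted p 0.000281), lower in 2 of 2 libraries, and no other member passed. That is 1 of 5, where 15.1% of all genes passed. TCL1B passed the filter on low values only through BTAG libraries, in which it is high, so nothing is read from this count. The call was lost with a pseudocount of 10 (-1.37, limma adjusted p 0.0609), and with all libraries as labelled the difference stayed at -4.08 with a limma adjusted p of 0.0505. BTAG libraries of days 2 and 4 were among those that chose the genes, so in these comparisons 1 side is not independent of the choice.

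The other members were uneven among BT single cells. KYNU was 2.99 and 60.78 RPM in libraries 1 and 2 of day 4, against 4.61 and 3.11 RPM in BTAG cells, and 91.9 RPM in the BT single library of day 2, against 1.17 and 0.49 RPM in BTAG cells. DKK4 was 8.46 and 76.7 RPM in libraries 1 and 2 of day 4, against 32.24 and 26.78 RPM in BTAG cells. BCL2L14 was 0 and 8.68 RPM, against 0.58 and 6.23 RPM.

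Library 2 was thus above library 1 for KYNU, DKK4 and BCL2L14, and the BTAG libraries lay between them or overlapped. SH2D4B stayed low in both, at 0.5 and 1.45 RPM, against 4.03 and 3.11 RPM in BTAG cells, with no overlap. On the log2(RPM + 1) scale the differences were 1.71 ± 0.91 for KYNU, -0.16 ± 1.25 for DKK4, -0.12 ± 0.91 for BCL2L14 and -1.25 ± 0.51 for SH2D4B (limma adjusted p 0.240, 0.957, 0.957 and 0.115). Without BT single library 2 of day 4 the KYNU difference was -0.27, and without library 1 it was 3.69 (limma adjusted p 0.00417), so the library that is used decides its direction. The same holds for DKK4, at 1.35 without library 1, and for BCL2L14, at 1.52.

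Endoderm markers, such as FOXA2, GATA6 and GSC, were abundant in these cells. Their 16 genes summed to 2609 and 4541 RPM in libraries 1 and 2 of day 4, with 3 and 0 markers at 0, against 95.01 and 226.05 RPM in BTAG cells of that day and medium. The sum was 2973 RPM in the BT single library of day 2, with 0 markers at 0. Of the 13 markers past the filter, 9 rose in BT single cells of day 4 and 0 fell, where 8.05% of all genes rose (median difference 3.87, against 0.07 over all genes). The part of these cells in the KYNU and DKK4 levels was not tested.

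BT single cells were also set against undifferentiated cells, and KYNU was the member that passed. It was 2.99 and 60.78 RPM in BT single cells of day 4, against 3.45, 0.88, 0 and 0 RPM in reporter ESC, a difference of 3.21 ± 0.79 (limma adjusted p 0.00713). The lower BT single library overlapped with the ESC. That was 1 of 5 members, with 14.3% of all genes past the threshold. The call was lost without BT single library 2 (1.23, limma adjusted p 0.389) and with all libraries as labelled (3.19, limma adjusted p 0.216). DKK4 differed by 2.28 ± 1.08 (limma adjusted p 0.163) and passed only without ESC library 2, where it was 3.09 (adjusted p 0.0437). TCL1B was at 0 on both sides, and BCL2L14 and SH2D4B differed by 0.83 ± 0.79 and 0.78 ± 0.44 (limma adjusted p 0.531 and 0.252). SH2D4B passed with DESeq2 (adjusted p 0.0428).

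SH2D4B lay above the BTAG level in AG mid cells. In these cells, where PRDM1 was at most 11.1 RPM, it was 10.73 RPM on day 2 in aRB27, against 0 and 1.46 RPM in BTAG cells, and 64.7 RPM on day 4 in GK15, against 8.83 RPM in BTAG cells. Both AG mid libraries lay above their BTAG counterparts. Those BTAG libraries lie at the early, low end of the slope that chose SH2D4B. That side is thus not independent of the choice. The mean difference was 2.82 ± 0.48 log2(RPM + 1) (limma adjusted p 0.000405), higher in 2 of 2 libraries. Each AG mid group and the BTAG group of GK15 day 4 had a single library, so the SE and p of every AG mid comparison take the spread from the other groups, and the lone libraries are assumed to vary like them. SH2D4B passed in every alternative except with all libraries as labelled, where the difference was 2.46 and the adjusted p 1.

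DKK4 was at 0 in both AG mid libraries, against 2.34 and 6.34 RPM in BTAG cells of aRB27 day 2 and 29.17 RPM in those of GK15 day 4. The difference was -3.61 ± 1.17 (limma adjusted p 0.0497), which lies at the threshold and held in 4 of 10 alternatives. The limma adjusted p was 0.0613 without aRB27 BTAG day 2 library 1, 0.117 without library 2, 0.0532 with median-of-ratios scaling, 0.165 with no filter, 0.287 with a pseudocount of 10 and 1 with all libraries as labelled, where the difference was -0.48. KYNU was 0 and 0.9 RPM in AG mid cells of day 2 and day 4, against 1.17 and 0.49 RPM on day 2 and 30.17 RPM on day 4 in BTAG cells. TCL1B was 0 and 0 RPM, against 1.75 and 0.49 RPM on day 2 and 3.67 RPM on day 4.

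KYNU and TCL1B did not pass, with differences of -2.44 ± 0.85 and -1.62 ± 0.64 (limma adjusted p 0.0729 and 0.122), although TCL1B passed with DESeq2 (adjusted p 0.0177) and with a pseudocount of 0.1 (limma adjusted p 0.00287). BCL2L14 was 0.41 and 0.6 RPM in AG mid cells of day 2 and day 4, against 0 and 0 RPM on day 2 and 0.67 RPM on day 4 in BTAG cells, a difference of 0.22 ± 0.85 (limma adjusted p 0.932). So 2 of 5 members passed in opposite directions, where 11.1% of all genes did. Nothing is read from this count, because the BTAG libraries of days 2 and 4 were among those that chose the genes. TCL1B passed the filter on low values only through BTAG libraries, in which it is high, so nothing is read from its passes either. Markers of amnion, trophoblast and mesenchyme summed to 4713 and 6422 RPM in the AG mid libraries of day 2 and day 4, and to 3952 and 3965 RPM and 3497 RPM in the matching BTAG libraries. The same sum was 2819 to 4770 RPM in reporter ESC and 2412 to 6161 RPM in aRB27 BTAG cells of day 6. The AG mid library of day 2 lay within both ranges, so the sum does not set it apart. Of the 13 marker genes past the filter, 6 rose and 0 fell in AG mid against BTAG cells, where 5.05% of all genes rose. HAND1 had the largest difference of those that passed, 4.85 ± 0.89 (limma adjusted p 0.000835), which was 1.36 with all libraries as labelled (limma adjusted p 1). Their part in the SH2D4B level was not tested. The AG mid library of GK15 day 4 has the title code MS134 and its BTAG counterpart MS162. With this code as a covariate SH2D4B and DKK4 still passed (limma adjusted p 0.00143 and 0.0135), and KYNU passed too, at -3.10 (adjusted p 0.0159).

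**Figure D2:**
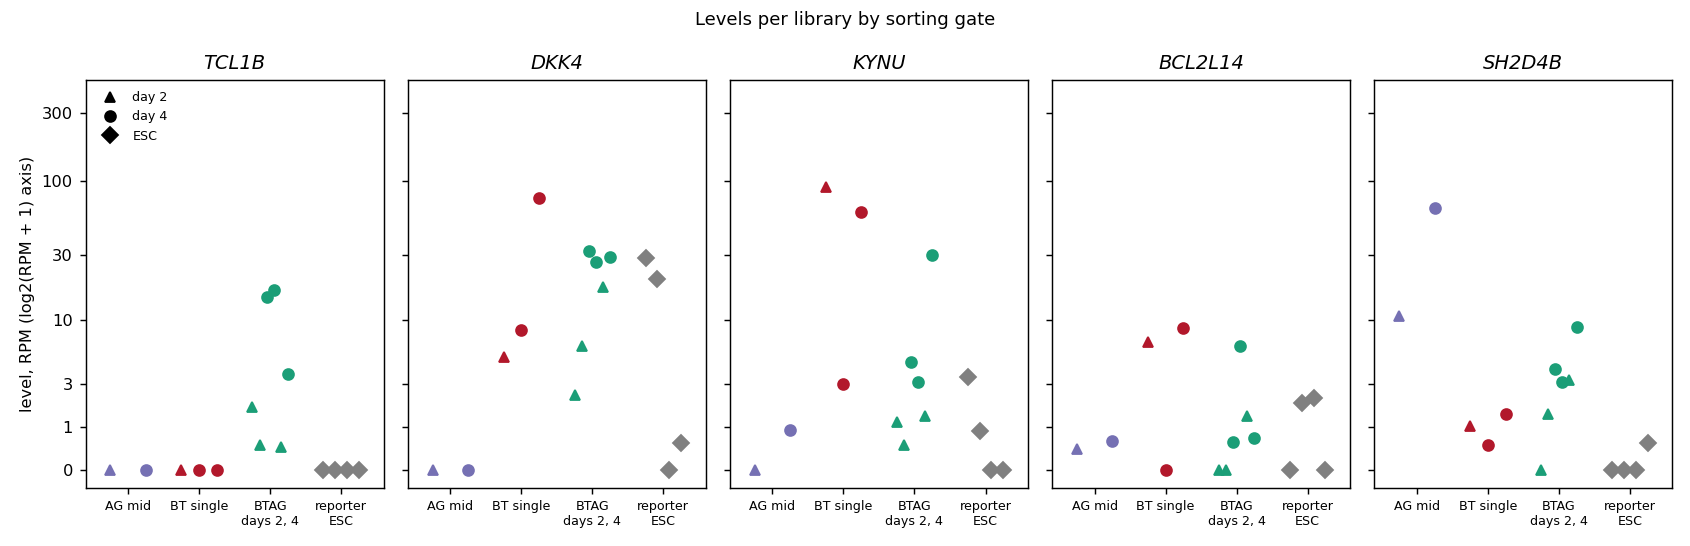
Level of each gene in RPM (vertical, log2(RPM + 1) axis) by sorting gate, with 1 point per library: triangles are day 2, circles day 4 and diamonds ESC, and media are drawn together. TCL1B is at 0 outside the BTAG gate, SH2D4B reaches its highest level of these days in AG mid cells, and KYNU and DKK4 are spread widely among BT single libraries.

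Late in GK15 the 2 libraries of each day divided the members. TCL1B was 86.46 RPM in library 2 and 18.57 RPM in library 1 of day 8, a ratio of 4.66, and 306.94 and 69.9 RPM in libraries 2 and 1 of day 10, a ratio of 4.39. BCL2L14 had ratios of 1.80 and 2.72 on these days. DKK4 had ratios of 0.224 and 0.492, and KYNU of 0.433 and 0.610. Library 2 was thus the higher for TCL1B and BCL2L14 and the lower for DKK4 and KYNU on both days. SH2D4B was level on day 8 (1.00) and lower in library 2 on day 10 (0.488). PRDM1 and TFAP2C had ratios of 0.649 to 0.889 on the 2 days. Depth was 4.56 M and 1.08 M reads in libraries 2 and 1 of day 8, and 1.33 M and 1.44 M on day 10, and its part in these ratios was not tested. The labels do not pair these libraries across days.

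**Figure D3:**
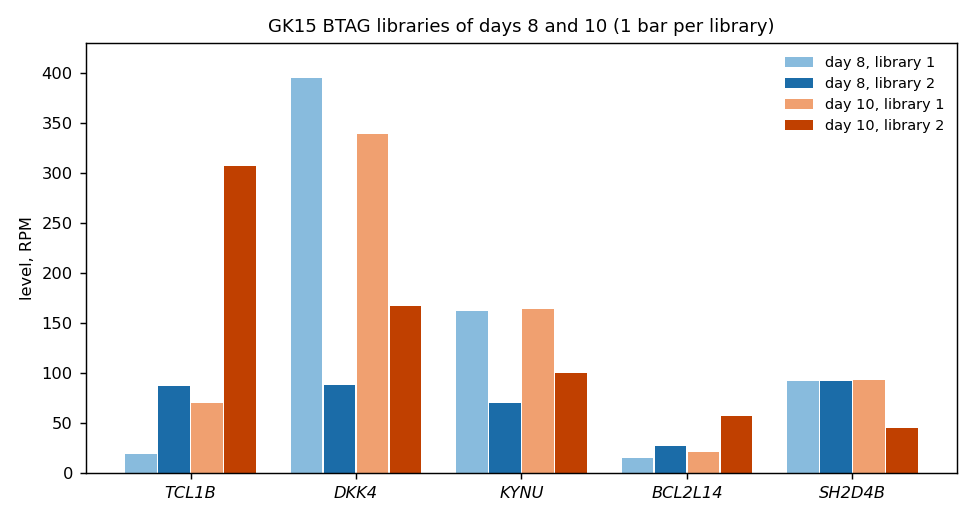
Level in RPM (vertical, from 0) of the 5 genes in the 4 BTAG libraries of days 8 and 10 in GK15, with 1 bar per library. TCL1B and BCL2L14 are higher in library 2 of each day, and DKK4 and KYNU are lower there.

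Over the 15 BTAG libraries, which include these 4, the closest pairs were DKK4 with SH2D4B (Pearson r 0.93), KYNU with SH2D4B (0.92) and TCL1B with BCL2L14 (0.89), and the most distant was TCL1B with DKK4 (0.64). These correlations describe libraries that share the trend over days by which the genes were chosen. Over all 24 reporter-line libraries the range was 0.62 (DKK4 with SH2D4B) to 0.81 (DKK4 with KYNU).

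Each member had a different set of most similar genes among 10701, by Pearson r of log2(RPM + 1) over the 24 libraries, given as a description. TCL1B was nearest to TRPM6, a magnesium channel (r 0.94), MC5R, a melanocortin receptor (0.94), and KLRG2 (0.94). TRPM6 was 0 RPM in all reporter ESC and BT single libraries and 14.9 to 39.5 RPM on days 8 and 10. KYNU was nearest to LLGL2, a cell polarity protein (0.88), KIAA1324L (0.87) and GSTM5, a glutathione transferase (0.87). GSTM5, like KYNU, was high in the BT single library of day 2, at 1002 RPM, against 138 to 293 RPM in BTAG cells of day 2 in both media.

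BCL2L14 was nearest to RPL18 (0.88) and RPS3 (0.87), both ribosomal proteins, and to ST6GALNAC2, a sialyltransferase (0.88). SH2D4B was nearest to HS3ST4, a heparan sulfate sulfotransferase (0.91), COL2A1, a cartilage collagen (0.88), and PGM5 (0.88). COL2A1 was 3.48 to 8.54 RPM in BT single cells, low like SH2D4B there. In the AG mid library of GK15 day 4 it was 237 RPM, against 272 RPM in BTAG cells, where SH2D4B had the opposite order. DKK4 was nearest to ERO1A, an oxidase of the endoplasmic reticulum (0.91), POLB (0.86) and BBS4, a protein of the ciliary BBSome (0.86).

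POLB, the DNA polymerase of base excision repair, is also the gene next to DKK4 in RefSeq's gene order (T2T-MFA8v1.1 assembly), without overlap. POLB averaged 72.1 ± 15.3 RPM in BTAG cells of day 2 (n = 3), 299.9 ± 49.5 RPM on day 6 (n = 5) and 236 ± 51.7 RPM on days 8 and 10 (SD, n = 4), and 44.7 RPM in reporter ESC. The neighbour on the other side, VDAC3, a mitochondrial channel, averaged 247 ± 17.5, 356 ± 27.2 and 286 ± 51.6 RPM in the same sets and 318 RPM in ESC. POLB did not go with DKK4 in BT single library 2 of day 4, where DKK4 was 76.7 RPM and POLB 78.5 RPM, against 26.78 and 149 RPM in BTAG library 2 of that day. These neighbours were looked up after their values had been seen.

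TCL1B is next to TCL1A, a relative in the TCL1 family, which stayed low. TCL1A was at most 0.93 RPM except for 5.28 RPM in library 2 of GK15 day 10, where TCL1B was 306.94 RPM. It held 17 reads in the 15 BTAG libraries together, 11 of them on days 8 and 10 in GK15. Its Pearson r with TCL1B over the 24 reporter-line libraries was 0.60. The labels do not describe how reads of similar genes were assigned. ETV6 and LRP6, next to BCL2L14, had slopes of 0.01 ± 0.05 and -0.07 ± 0.04 per day. LRP1B and ARHGAP15, next to KYNU, were under 1 RPM on average in each of these sets.

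**Figure D4:**
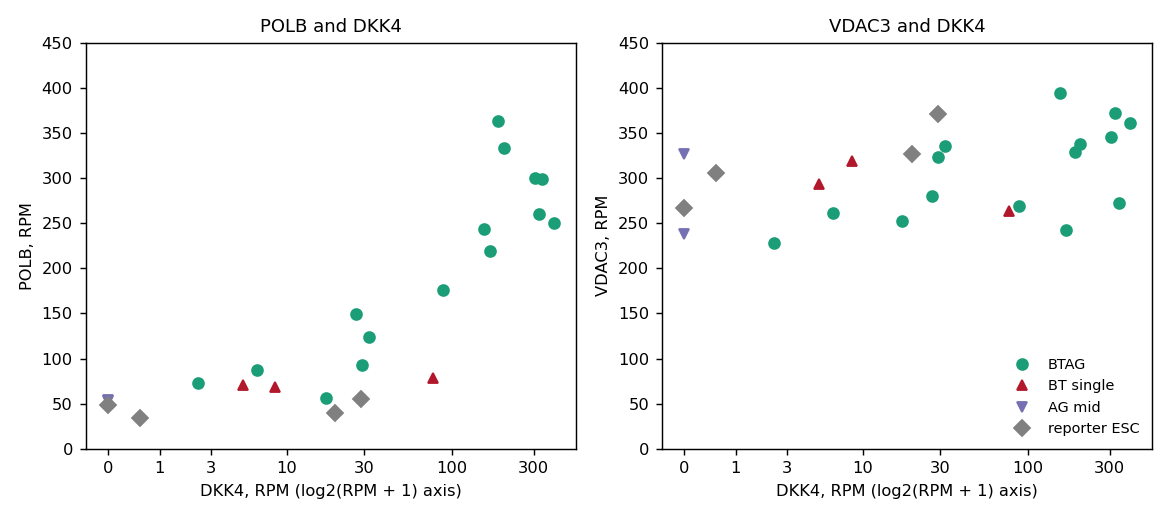
Levels of POLB (left) and VDAC3 (right), the neighbours of DKK4, in RPM (vertical, from 0) against DKK4 (horizontal, RPM on a log2(RPM + 1) axis), with 1 point per reporter-line library and the gate by shape. POLB is highest in the BTAG libraries with high DKK4 and stays low in BT single cells, while VDAC3 lies between 228 and 395 RPM throughout.

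The families and pathways of the members were described by the same slope. Over all genes tested 7.14% rose and 12.2% fell, or 702 and 1202 genes, and with median-of-ratios scaling 924 rose and 884 fell. The counts of each list are set beside these shares, and nothing particular to a list is read from them. Of the TCL1 and AKT list 19 genes passed the filter besides TCL1B, and 2 rose and 2 fell over the days (median slope 0.00, against -0.03 over all genes). KIT, the SCF receptor, which signals through PI3K and AKT, rose by 0.35 ± 0.08 per day (limma adjusted p 0.00318) to 389 ± 35.6 RPM on days 8 and 10 in GK15 (n = 4), against 67.3 ± 40.9 RPM on day 2 in both media (SD, n = 3). AKT1, the kinase that TCL1 proteins bind, fell by 0.18 ± 0.03 per day (limma adjusted p 0.000272). It averaged 39.2 ± 2.78 RPM on days 8 and 10 and 88.98 ± 10.85 RPM on day 2. IRS1, an adaptor of the insulin receptor, fell by 0.24 ± 0.07 (limma adjusted p 0.0180). That call was lost without GK15 day 2 library 1 or day 10 library 1, with edgeR and DESeq2, and with a pseudocount of 10. With all libraries as labelled the KIT slope was 0.35, as large as before, with a limma adjusted p of 0.0827, and the AKT1 slope of -0.12 was under the size threshold.

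Among 9 other Dickkopf proteins and secreted WNT antagonists 2 rose and 1 fell (median slope 0.01). SOSTDC1, which binds LRP coreceptors, rose by 0.47 ± 0.11 per day, and NOTUM, which removes the lipid of WNT proteins, by 0.34 ± 0.07 (limma adjusted p 0.00607 and 0.00236). SOSTDC1 averaged 208 ± 36.3 RPM on days 8 and 10 in GK15 (n = 4) and 20.7 ± 14.4 RPM on day 2 (SD, n = 3). CER1, an antagonist of NODAL, BMP and WNT, fell by 1.21 ± 0.21 per day (limma adjusted p 0.000498) and was at 0 in all day 8 and day 10 libraries. Of the Dickkopf relatives DKK1, DKK2 and DKK3 did not pass the filter, with means of at most 5.17 RPM in BTAG cells of any day set. The Dickkopf-like gene DKKL1 passed the filter and averaged 7.62 to 9.58 RPM in these sets, with a slope of 0.01 ± 0.07 (limma adjusted p 0.935).

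Of 12 WNT target genes past the filter 5 fell and 1 rose, where 12.2% and 7.14% of all genes did (median slope -0.12, against -0.03 over all genes). SP5, TCF7 and CDX1, all transcription factors, fell by 0.66 ± 0.12, 0.36 ± 0.05 and 0.38 ± 0.11 per day (limma adjusted p 0.000869, 6.0e-05 and 0.0134). SP5 averaged 2.06 ± 0.926 RPM on days 8 and 10 in GK15 and 52.6 ± 31.1 RPM on day 2. CCND1, the gene that rose, averaged 52.8 ± 9.50 and 10.1 ± 1.37 RPM in these sets and was not followed through the alternatives. SP8, RNF43, ZNRF3, CDX2, T and MYC did not pass. DKK4 averaged 247 RPM on days 8 and 10, and its link to these genes was not tested. In BT single cells of day 4 SP5 rose by 5.95 ± 0.74 relative to BTAG cells, and DKK1 by 5.38 ± 0.96 (limma adjusted p 1.19e-05 and 0.000489), while SOSTDC1 fell by 6.51 ± 0.63 (7.16e-07). With all libraries as labelled the differences of DKK1 and SOSTDC1 stayed at 5.38 and -6.51, with limma adjusted p of 0.0975 and 0.130, which did not pass. DKK4 itself did not pass in that comparison. The CDX1 call over the days was lost without GK15 day 2 library 1 (slope -0.31, limma adjusted p 0.116) and with all libraries as labelled (-0.21, limma adjusted p 0.191).

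Of 14 other genes of the kynurenine and NAD list 3 rose and 1 fell (median slope -0.000804). TDO2, which opens the pathway, rose by 0.46 ± 0.10 per day (limma adjusted p 0.00236) in every alternative. It averaged 24.04 ± 19.79 RPM on days 8 and 10 in GK15 (n = 4) and 0.977 ± 0.766 RPM on day 2 (SD, n = 3). SLC7A5, a carrier of tryptophan and kynurenine, fell by 0.25 ± 0.06 (limma adjusted p 0.00788), which was lost without GK15 day 2 library 1. CCBL1, a kynurenine aminotransferase, rose by 0.21 ± 0.08 (limma adjusted p 0.0435), and that call was lost in 8 of 15 leave-outs of a library, with pseudocounts of 0.1 and 10, with no filter and with edgeR.

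Other enzymes of the first step and of the later steps were uneven in level. IDO2, an alternative to TDO2, averaged 193 ± 81.3 RPM on days 8 and 10 in GK15 (n = 4) and 88.5 ± 13.2 RPM on day 2 (SD, n = 3), with a slope of 0.02 ± 0.10 that did not pass (limma adjusted p 0.925). QPRT, which makes the NAD precursor at the end of the branch, averaged 50.3 ± 7.10 RPM and 72.8 ± 10.5 RPM in these sets and did not pass (limma adjusted p 0.318). KMO, which acts on kynurenine beside KYNU, and IDO1 were at 0 in all these BTAG and reporter ESC libraries, and HAAO, the step after KYNU, averaged at most 2.55 RPM in any set. In BT single cells, where KYNU was 2.99 and 60.78 RPM, TDO2 was at 0 in both libraries of day 4, against 4.61 to 10.67 RPM in BTAG cells of day 4 in both media. That difference was -2.73 ± 0.79 (limma adjusted p 0.0217). It was lost when any of the 4 libraries of that comparison was left out, with no filter, with a pseudocount of 10 and with all libraries as labelled, where it stayed at -2.73 (limma adjusted p 0.0673 to 0.336 over these settings).

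In the BCL2 family 2 of 12 other genes rose and 1 fell (median slope 0.03). BCL2L1, the death-restraining BCL-XL, rose by 0.26 ± 0.06 per day and PMAIP1, the death-promoting NOXA, by 0.25 ± 0.06 (limma adjusted p 0.00454 and 0.00320). BCL2L1 averaged 38.4 RPM on days 8 and 10 and 11.5 RPM on day 2, and PMAIP1 163 and 43.3 RPM. Reporter ESC held 533 RPM of PMAIP1, a difference that was not tested. With all libraries as labelled the PMAIP1 call was lost (slope 0.11, limma adjusted p 0.237). BMF fell by 0.13 ± 0.04 (limma adjusted p 0.0287), lost in 6 of 15 leave-outs and with edgeR, DESeq2, median-of-ratios scaling and a pseudocount of 10. Of the SH2D and SH2B adaptors 3 others passed the filter, 0 rose and 1 fell: SH2B3, by 0.29 ± 0.10 (limma adjusted p 0.0415), lost in 7 of 15 leave-outs, with a pseudocount of 0.1, with no filter and with median-of-ratios scaling. SH2D4A, the paralog of SH2D4B, averaged 0.055 RPM on days 8 and 10, 3.70 RPM on day 2 and 6.85 RPM in reporter ESC.

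**Figure D5:**
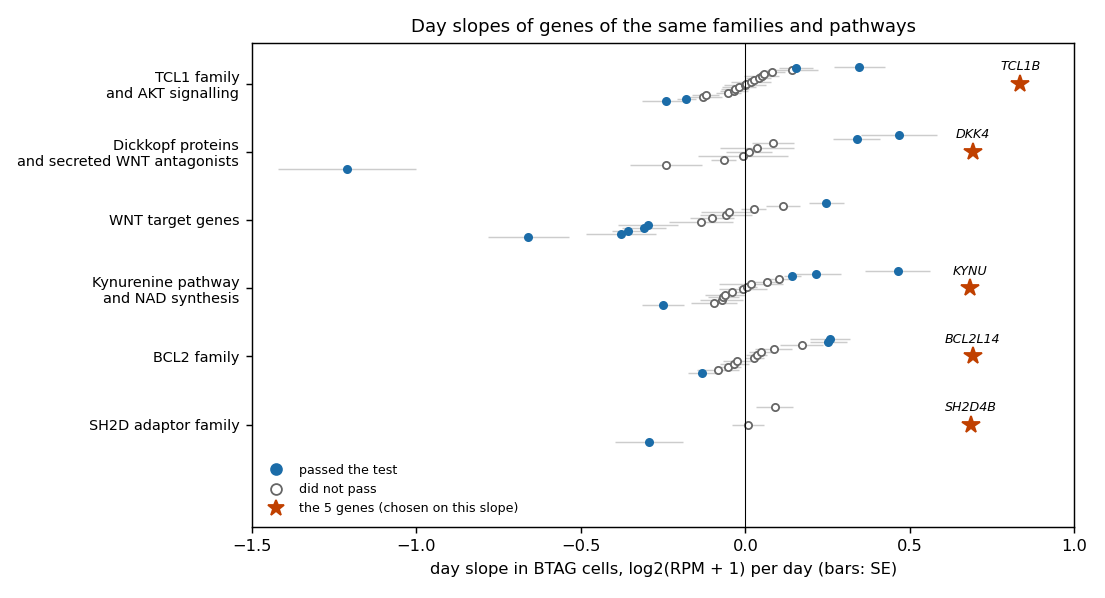
Slope over days in BTAG cells, in log2(RPM + 1) per day ± SE (horizontal), for each gene of 6 lists that passed the filter on low values (vertical, 1 point per gene). Filled points passed the limma test, open points did not, and stars are the 5 members, which were chosen on this slope. Each list has genes on both sides of 0, and 5 of 12 WNT targets passed on the falling side, where 12.2% of all genes did.

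The mouse libraries were examined for the same genes. Mouse has 9 orthologs of the 5, because TCL1B corresponds to the genes Tcl1b1 to Tcl1b5, and none of the 9 passed the filter of 10 RPM in 2 libraries. Dkk4 was 0 and 0 RPM on day 6, against 0.44 and 0.44 RPM on day 4, and Kynu was 0.42 and 1.21 RPM, against 0.44 and 0 RPM. 4 of the Tcl1b genes had no read in any library and Tcl1b2 had 4 reads in all. Sh2d4b was 1.26 and 1.21 RPM on day 6, against 1.32 and 1.77 RPM on day 4.

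Bcl2l14 was the ortholog with the most reads, at 4.2 and 5.25 RPM on day 6, against 1.32 and 1.33 RPM on day 4, without overlap and below the filter. The relative Tcl1, ortholog of TCL1A, was 62.96 and 42.38 RPM on day 6, against 16.34 and 8.4 RPM on day 4. It rose by 2.04 ± 0.31 log2(RPM + 1) (limma adjusted p 0.00693), where 2.59% of the genes passed. It passed in 7 of 10 alternatives. The call was lost with no filter (limma adjusted p 0.312), without day 6 library 1 (0.417) and without day 6 library 2 (0.313). Mouse and monkey libraries were normalized in separate tables, so levels are not compared between them.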

How the data were processed

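The authors deposited 1 table of RPM values per species, reads of each gene per 1000000 reads of the library (3′ RNA-seq from 1 ng of total RNA). The tools, per the submitters' processing notes, include TopHat 1.4.1, cutadapt 1.3 and Cufflinks 2.2.0, and the mouse build was GRCm38. For monkey the build is not given in the sources. Low values were whole multiples of 1 read (99.4% to 99.8% in monkey, tolerance 0.1 of a step), and reads were recovered from that step. The 96 mouse spike-in entries were not used.

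Tests used limma 3.58.1 (R 4.3.3) on log2(RPM + 1) with a trend, for genes that reached 10 RPM in 2 or more libraries of the fit. A gene passed at a Benjamini-Hochberg adjusted p under 0.05 and a log2 difference of at least 1, a slope of at least 0.125 per day, or a slope difference of at least 0.25. These fold changes understate the change of low genes. Alternatives were pseudocounts of 0.1 and 10, no filter, median-of-ratios scaling, edgeR 4.0.16 and DESeq2 1.42.0 on the recovered reads, all libraries as labelled, the title code as a covariate and leaving out each library. The fits were also run on simulated reads for genes averaging at least 10 RPM, with the same spread set for all genes. Those runs do not cover low genes or genes that vary widely between libraries of a group, and nothing is read from them.

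The members and the 10 gene lists were chosen with earlier results of these data known. Named genes are the members, up to 3 of each list past the threshold, the 3 most similar to each member and the 3 next in slope; neighbours and the other pathway genes given by level were added after their values were seen. Libraries are numbered within groups by accession order. Sequences were not used here.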

Additional observations from a re-analysis of the deposited data

Results flagged for a closer look

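In groups of 4 or 5 ESC libraries, a single library stood apart for SH2D4B in 2 of 10 tests. It was 0.54 RPM in 1 reporter ESC library and 0 in the other 3, and 1.63 RPM in 1 library of ESC without transgenes (line 681F) and 0 in the other 4. The usual rate of 1 in 20 groups by chance does not hold here, because a lone value above 0 among values of 0 is always flagged. These 2 flags rest on 1 and 6 reads.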

How the results depend on the processing

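The count of genes past the threshold between media, 9, was 3 and 22 with pseudocounts of 0.1 and 10, 37 with no filter, 5 with median-of-ratios scaling, 4 with edgeR, 49 with DESeq2, 1 as labelled, 4 with the title code, and 3 to 18 without a library. The slope difference gave 1 gene with DESeq2, against 0. BT single against BTAG gave 403 genes as labelled and 1101 to 1422 without a library, against 1619. BT single against ESC gave 1021 with a pseudocount of 10, 507 as labelled and 903 to 1531 without a library, against 1534. AG mid against BTAG gave 0 genes as labelled, against 1184. The mouse count of 214 became 94 with a pseudocount of 10, 0 with no filter, 138 with DESeq2 and 0 to 195 without a library. Of 473 recomputed slopes and differences of members 413 stayed the same and 23 reversed. For differences, the same means the same direction and side of the threshold. For the slopes that chose the genes, it means a shift of less than 1 SE. Reversals in the medium difference were 1.15 for DKK4 as labelled, and -0.28 and -0.30 for BCL2L14 with a pseudocount of 0.1 and edgeR. Without a library, the ranges of members that reversed were -0.032 to 0.294 for TCL1B, -0.062 to 0.621 for DKK4, -0.568 to 0.108 for KYNU and -0.156 to 0.386 for SH2D4B in the slope difference, -1.68 to 1.35 for DKK4, -0.27 to 3.69 for KYNU and -1.76 to 1.52 for BCL2L14 in BT single against BTAG, and -0.80 to 2.47 for BCL2L14 against ESC. Reversals in the slope difference were -0.029, -0.020 and -0.032 for TCL1B (edgeR, DESeq2, without aRB27 day 2 library 2), -0.062, 0.108 and -0.156 for DKK4, KYNU and SH2D4B without GK15 day 2 library 1, 0.024 for KYNU with edgeR, and -0.062 for SH2D4B with a pseudocount of 10. In BT single against BTAG, DKK4 became 0.021 (pseudocount of 10), 0.49 (edgeR), 0.48 (DESeq2) and 1.35 (without BT single library 1), KYNU -0.27 (without library 2), and BCL2L14 0.061, 0.39, 0.34, 1.52 under the settings given for DKK4 and 0.98 without BTAG library 2. Against ESC, BCL2L14 was -0.80 without BT single library 2. In AG mid against BTAG as labelled, KYNU was 0.038 and COL1A1 -0.057. The cause of these changes was not tested. Leaving out a group's lone library could not be fitted where the contrast needs it: the GK15 BTAG libraries of days 2 and 4 between media, and both AG mid libraries and the GK15 BTAG library of day 4 for AG mid. No paired analysis was possible because the labels give no replicate numbers. Levels near 1 RPM rest on 1 to 7 reads. Leaving out a library for the ratios of late GK15 to reporter ESC was chosen after the data had been seen.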
